A study of Mus musculus with 25 samples.

Results

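CpG island shelves inside genes were examined in fat pads of the mouse mammary gland with RRBS (reduced representation bisulfite sequencing), which cuts DNA at CCGG with MspI and reads the methylation of CpGs near the cuts. Shelf CpGs were taken as the unique CpGs on chromosomes 1 to 19 that the authors' annotation places in the gene body alone and in the shelf of a CpG island, with a deposited coverage of at least 10 reads. The rule gave 12429 of the 283974 unique CpGs in the table (4.38%), carrying 2452 gene symbols, with 1307 CpGs carrying none. No measured level entered the rule. Exons and introns were not told apart within the gene body.

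All mice were C57BL/6N with wild-type genotype, and each received E0771 mouse mammary cancer cells in the 4th mammary pad 25 weeks after randomisation; the DNA came from the pad on the opposite side (the 9th), described as normal tissue. Control mice ate the D12450J diet throughout and were never obese. Obese mice ate D12492, a 60% high-fat diet. Mice of the other 4 groups were first made obese on D12492 and then moved to an unrestricted low-fat diet (LFD), the low-fat diet with calories cut by 30% (LFCR), a diet of Mediterranean style cut by 30% (MCR) or intermittent calorie restriction (ICR). Earlier obesity and the later diet therefore cannot be told apart in a comparison with Control. The values below come from 21 libraries, 1 per mouse: 5 Control, 1 Obese (mouse 22), 3 LFD, 4 LFCR, 3 MCR and 5 ICR. The rule leaves out Obese mice 27, 28 and 40, and LFD mouse 46. Some label fields name the E0771 cell line as the source, although the design text describes normal tissue.

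CpG islands are stretches of DNA rich in CpG that often hold promoters and are mostly free of methylation. Shores flank the islands, shelves lie beyond the shores, and the rest of the genome is called open sea. Methylation inside transcribed genes is usually high and is copied at cell division by the maintenance enzyme Dnmt1. Highly methylated CpGs in shelves and open sea can lose methylation where it is not fully copied or is removed by Tet enzymes. A fat pad holds adipocytes, epithelium, stroma, vessels and leukocytes, so a change in the mix of cells and a change of methylation within cells cannot be told apart here.

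Shelf CpGs of gene bodies can lie just before the start of another transcript, and 114 of them fell within 250 bases before to 50 after a RefSeq start of 41 genes. Of these, 66 were tested; 24 were called lower in MCR than in Control and 8 higher, beside 32.8% and 4.54% of all tested CpGs (the test is described below). The stretches printed here, from RefSeq on GRCm38.p6 (mm10) in the direction of transcription and ending before the start, were chosen because they show the largest loss, a loss called in MCR and LFCR, a gain and a stretch at nearly no methylation. Capitals mark the CpGs that belong to the shelf set. Zmynd8 (chr2:165858174-165858327, minus strand) encodes a reader of histone marks, Hyal1 (chr9:107576780-107576915, plus strand, inside Gm16343) a lysosomal hyaluronidase, and Plin5 (chr17:56117338-56117399, minus strand) a lipid droplet protein. Fam110a is shown at chr2:151973395-151973626 on the minus strand.
Zmynd8: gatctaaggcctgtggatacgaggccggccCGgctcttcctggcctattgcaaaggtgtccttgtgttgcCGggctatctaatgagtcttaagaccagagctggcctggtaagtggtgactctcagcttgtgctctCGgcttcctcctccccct
Hyal1: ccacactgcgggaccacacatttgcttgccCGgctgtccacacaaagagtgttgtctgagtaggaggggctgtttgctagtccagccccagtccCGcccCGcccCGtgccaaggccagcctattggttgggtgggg
Fam110a: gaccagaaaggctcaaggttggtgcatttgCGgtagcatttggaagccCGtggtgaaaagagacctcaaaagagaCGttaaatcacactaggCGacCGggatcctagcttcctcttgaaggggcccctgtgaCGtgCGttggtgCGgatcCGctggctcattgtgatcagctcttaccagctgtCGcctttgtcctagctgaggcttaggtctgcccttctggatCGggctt
Plin5: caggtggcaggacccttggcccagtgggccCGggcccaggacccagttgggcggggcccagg
Mean levels in Control and MCR were 55.0% and 3.59% over the 3 marked CpGs of Zmynd8 and 18.6% and 3.86% over the 4 of Hyal1. Over the 11 marked CpGs of Fam110a they were 8.92% and 20%, with 6 CpGs called higher in MCR by the test described below. The single marked CpG of Plin5 was at 2.15% in Control and 0% in MCR, and was not called. The MspI site CCGG (read alike on both strands) occurred 3 times in the Zmynd8 stretch and once each in the other 3. It was present in 47.1% of 32851 RefSeq windows of 250 bases, which are longer than the stretches printed. RRBS reads CpGs near this site, so its presence here follows from the method and says nothing of binding.

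Before any test, the libraries differed in how many shelf CpGs they covered. MCR mouse 95 had a value at 62.7% of them and Control mouse 1 at 67.6%, and the 19 other libraries at 75.8% to 99.8%. The deposited coverage is the mean number of reads over 21 libraries, with a median of 37.1 reads per shelf CpG and quartiles of 22.4 and 66.1. Coverage per library was not given, so no counting interval could be attached to the level of a single CpG in a single mouse.

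In the 21 libraries used, mean shelf methylation inside genes was lower in every weight-loss group than in Control mice, most so in MCR. Over the 6138 shelf CpGs with a value in all 21 libraries, the mean level was 67.7, 69.6, 66.8, 64.7 and 67.3% in Control mice 1, 2, 5, 10 and 13, and 65.2% in Obese mouse 22. LFD mice 42, 47 and 48 had 57.6, 65.4 and 62.7%, and LFCR mice 63, 67, 69 and 72 had 56.1, 56.6, 62.7 and 65.0%. MCR mice 85, 95 and 96 had 56.3, 55.6 and 56.6%, and ICR mice 102, 103, 105, 106 and 112 had 63.2, 60.6, 64.0, 64.3 and 65.8%. All MCR mice lay below all Control mice, while 1 mouse each of LFD, LFCR and ICR reached into the Control range. LFD mouse 46, which the rule leaves out, was above all Control mice. It had 72.6% against 63.2% to 68.2% in Control, over the shelf CpGs with a value in all 25 libraries.

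The group means were 67.2% ± 1.78 (SD, n = 5) in Control, 61.9% ± 3.95 (n = 3) in LFD, 60.1% ± 4.45 (n = 4) in LFCR, 56.2% ± 0.517 (n = 3) in MCR and 63.6% ± 1.94 (n = 5) in ICR. MCR differed from Control by -11.1 percentage points (exact permutation test, two-sided, p = 0.0179, the smallest these group sizes allow, adjusted p = 0.0238 over 4 diets). The difference was -7.15 for LFCR (exact permutation p = 0.0159, adjusted p = 0.0238), -3.64 for ICR (p = 0.0159, adjusted p = 0.0238) and -5.33 for LFD (p = 0.0357, adjusted p = 0.0357). The 4 comparisons share the Control mice. Leaving out Control mouse 1, 2, 5 or 13 kept all 4 differences negative but left none of the adjusted p values below 0.05 (0.0571 to 0.0857), as did leaving out LFD mouse 42 or 48 for LFD (0.143 and 0.0952). Without any of those Control mice, MCR had the smallest p that 3 against 4 mice allow (exact permutation p = 0.0286). Its adjusted p could then pass only with small p values in the other diets.

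The diets themselves were not separated by the shelf mean. MCR was -3.92 percentage points from LFCR, the low-fat diet at the same restriction (exact permutation p = 0.286, adjusted p = 0.429 over 3 pairs). ICR was 3.51 above LFCR (exact permutation p = 0.183, adjusted p = 0.429), and LFCR was -1.82 from LFD (p = 0.571, adjusted p = 0.571, same test). The 4 LFCR mice fell into a lower pair, mice 63 and 67, at the MCR level, and a higher pair, mice 69 and 72. A p above the threshold does not show that the diets act alike.

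**Figure D1:**
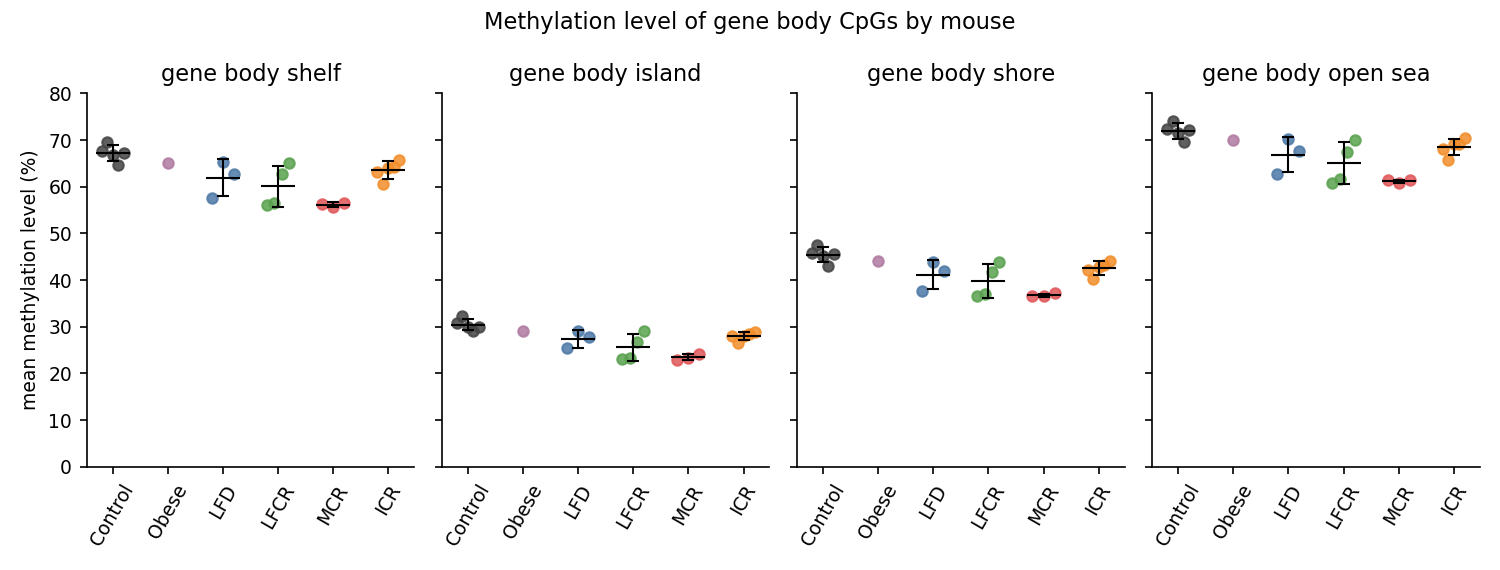
Mean methylation level (%) of gene body CpGs per mouse in shelves, islands, shores and open sea, by group. Each point is a mouse, bars are the group mean ± SD (no bar for Obese, 1 mouse). The 3 MCR mice have shelf means of 55.6% to 56.6%, below the Control range of 64.7% to 69.6%.

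Shelves sat between shores and open sea in level, and their diet difference was close to that of open sea. Control means were 30.4% ± 1.18 in body islands (10547 CpGs), 45.4% ± 1.60 in shores (12402) and 71.9% ± 1.72 in open sea (41793; SD, n = 5 each). The MCR difference was -6.93 percentage points in islands, -8.67 in shores and -10.7 in open sea, against -11.1 in shelves. The gap between shelf and class within each mouse changed by -4.14 for islands, -2.40 for shores and -0.323 for open sea in MCR (exact permutation p = 0.0179 each, adjusted p = 0.0268 over 12 tests). Leaving out MCR mouse 85, 95 or 96 kept the 3 differences negative but ended the calls (p = 0.0476, adjusted p = 0.0571, exact permutation tests of 2 mice against 5). That p is the smallest these sizes allow. With the other p values as they were, no MCR call was possible, so the lost calls do not bear on the differences. All LFD and LFCR gaps were called as well (exact permutation adjusted p 0.0268 to 0.0429), as was the ICR gap to shores (-0.792, adjusted p = 0.0268). The ICR gaps to islands (-1.22, adjusted p = 0.113) and open sea (-0.199, adjusted p = 0.119) were not called. The LFD and LFCR calls against islands were lost, for example, without Control mouse 1, 2, 5 or 13 (adjusted p = 0.103). In MCR, shelves thus lost more points than the other classes in these mice, by a margin over open sea of under 1 point.

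That order depended on the level of the CpGs. When each class was limited to CpGs at 70% or more in Obese mouse 22, a mouse outside the groups compared, 3438 shelf, 1641 island, 3596 shore and 26256 open sea CpGs remained. Shelves then lost less than islands in MCR, by 1.87 points (exact permutation p = 0.0179, adjusted p = 0.0536), and less than shores by 0.349 (p = 0.0714, adjusted p = 0.0952). They lost more than open sea, by -0.694 points (exact permutation p = 0.0179, adjusted p = 0.0536). The larger loss of shelves over islands and shores was therefore not seen among CpGs of like high level.

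Individual shelf CpGs were tested with limma on the methylation level over all 129215 CpGs with enough values, in the whole table, with Benjamini-Hochberg adjustment over all of them; a call is an adjusted p below 0.05. A value was required in at least 3 mice of each group with 3 or more mice. This left 7223 of the 12429 shelf CpGs (58.1%). Of the 5206 others, 4963 had fewer than 3 MCR mice with a value, and their median coverage was 21.1 reads against 58.7 for those tested. The statements on single CpGs therefore apply to the better covered ones.

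In MCR, 3032 of the 7223 shelf CpGs were lower than in Control (42.0%) and 402 were higher (5.57%), where 32.8% and 4.54% of all tested CpGs were called. In LFCR, 1142 were lower (15.8%) and 142 higher (1.97%), where the whole table had 12.1% and 1.48%. No shelf CpG was called in LFD or ICR, nor any in the table (0%), although 1720 and 1153 shelf CpGs had an unadjusted p below 0.05. The median difference of the tested shelf CpGs was -9.96 percentage points in MCR (all tested CpGs -7.30), -6.28 in LFCR (-4.51), -4.76 in LFD (-3.07) and -3.11 in ICR (-2.11). The LFCR calls rested on few mice: without mouse 63 none were left in either direction, without mouse 67 there were 2 lower and 0 higher, and without Control mouse 2 there were 68 and 3. Without Control mouse 1 there were 531 and 53, without Control mouse 13 there were 599 and 58, and without LFCR mouse 72 there were 2092 and 262.

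The CpGs called lower and those called higher had different levels in Control. The same Control values enter the calls, so part of this contrast is fixed by the selection. The MCR losses had a median of 78.1% in Control and 53.0% in MCR, with a median difference of -21.1 points and 312 CpGs that fell by at least 40 points. The gains had a median of 28.4% in Control and 59.3% in MCR, with a median difference of 20.8 points and 42 CpGs that rose by at least 40. Over all tested shelf CpGs the share above 80% was 45.9% in Control, 33.6% in LFD, 30.8% in LFCR, 24.5% in MCR and 37.4% in ICR. The share between 20% and 80% was 44.6% in Control and 60.9% in MCR, and the share under 20% was 9.41% and 14.5%. Fewer CpGs were thus at the top in MCR, and more were in the middle and at the bottom.

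Ordered by their level in Obese mouse 22, which enters no comparison, shelf CpGs of middle level differed most. The median MCR difference was -0.865 points for the 711 CpGs under 20%, -6.64 for the 732 at 20 to 40%, -18.6 for the 913 at 40 to 60%, -16.8 for the 1928 at 60 to 80%, -10.1 for the 1669 at 80 to 90% and -7.27 for the 1265 at 90% or more. Gains were called for 13.5% and 18.4% of the CpGs in the lowest 2 classes and for 0.316% in the highest. Losses were called for 55.5% of the CpGs in both middle classes. The single CpGs with the largest losses in MCR lay in Serpinh1 (-63.6 points), Runx3 (-61.5) and Zmynd8 (-57.1), and those with the largest gains in Thy1 (61.4), Arhgap45 (54.5) and Fcho1 (54), with limma adjusted p of 0.00068 to 0.00704. Each lies in a region described below. The CpGs in Serpinh1, Zmynd8 and Thy1 had a value in only 3 Control mice. Deposited coverage was 15.3 reads at the Serpinh1 CpG and 20.1 at the Zmynd8 CpG.

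**Figure D2:**
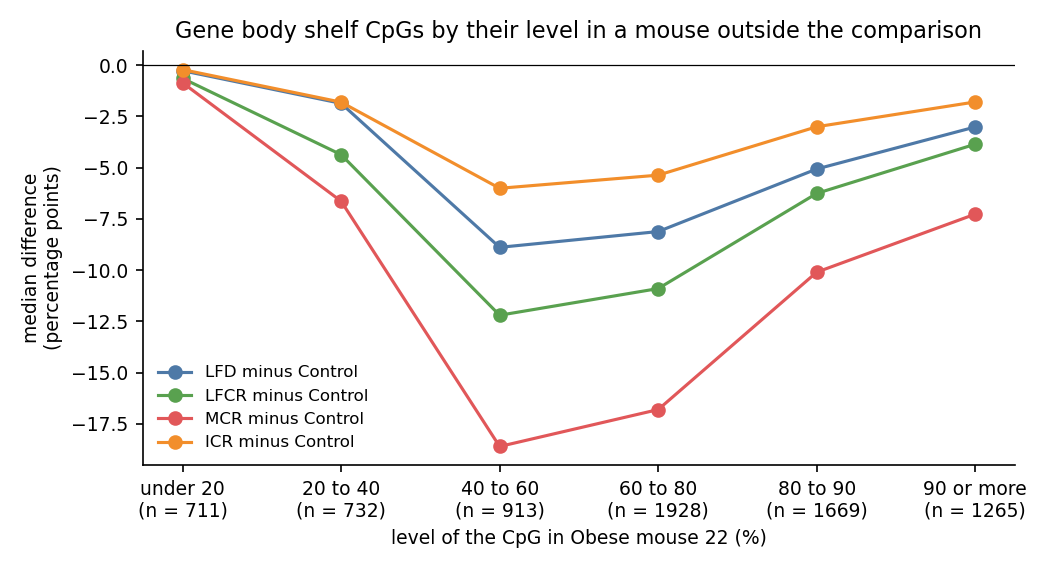
Median difference from Control (percentage points) of the tested shelf CpGs in 6 classes of their level (%) in Obese mouse 22, 1 line per diet, with the number of CpGs under each class. The lines are deepest at 40 to 60%, with -18.6 for MCR, -12.2 for LFCR, -8.89 for LFD and -6.01 for ICR.

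Neighbouring tested shelf CpGs mostly had MCR differences of the same sign. The share was 91.1% among 929 pairs that lie 2 to 10 bases apart. It was 78.2% among 390 pairs more than 200 and up to 1000 bases apart. The median MCR difference of the tested shelf CpGs was -9.96 points, so unrelated pairs would often match in sign as well. Their share was not computed, so no link between neighbours is read from these values. By chromosome the MCR difference of the shelf mean ran from -7.13 points on chromosome 16 (40 CpGs) to -14.8 on chromosome 12 (138 CpGs), below 0 on all 19. Over 4 classes of coverage of like size it was -10.3, -10.1, -11.3 and -12.6 from the lowest to the highest, so it was not limited to thinly covered CpGs.

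Runs of shelf CpGs were then joined into regions, since several CpGs together have less error than one. A region held at least 3 tested CpGs with the same annotation and gaps of at most 500 bases; this gave 1053 shelf regions with 5465 CpGs, a median of 4 CpGs and a median width of 170 bases, carrying 837 symbols. They were tested with limma beside the regions of all other classes, 16891 in all. In MCR 678 shelf regions were lower (64.4%) and 71 higher (6.74%), where 54.3% and 6.52% of all regions were called. In LFCR 417 were lower (39.6%) and 42 higher (3.99%), where 32.4% and 3.58% were called. None was called in LFD, where 0.0296% of all regions were, or in ICR, where none were (0%); 366 and 234 had an unadjusted p below 0.05. Without LFCR mouse 63 or 67 no LFCR region was called in either direction, and without Control mouse 2 there were 215 lower and 17 higher. Without Control mouse 13 there were 26 higher in LFCR. Without LFD mouse 47, 144 regions were lower and 19 higher in LFD.

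**Figure D3:**
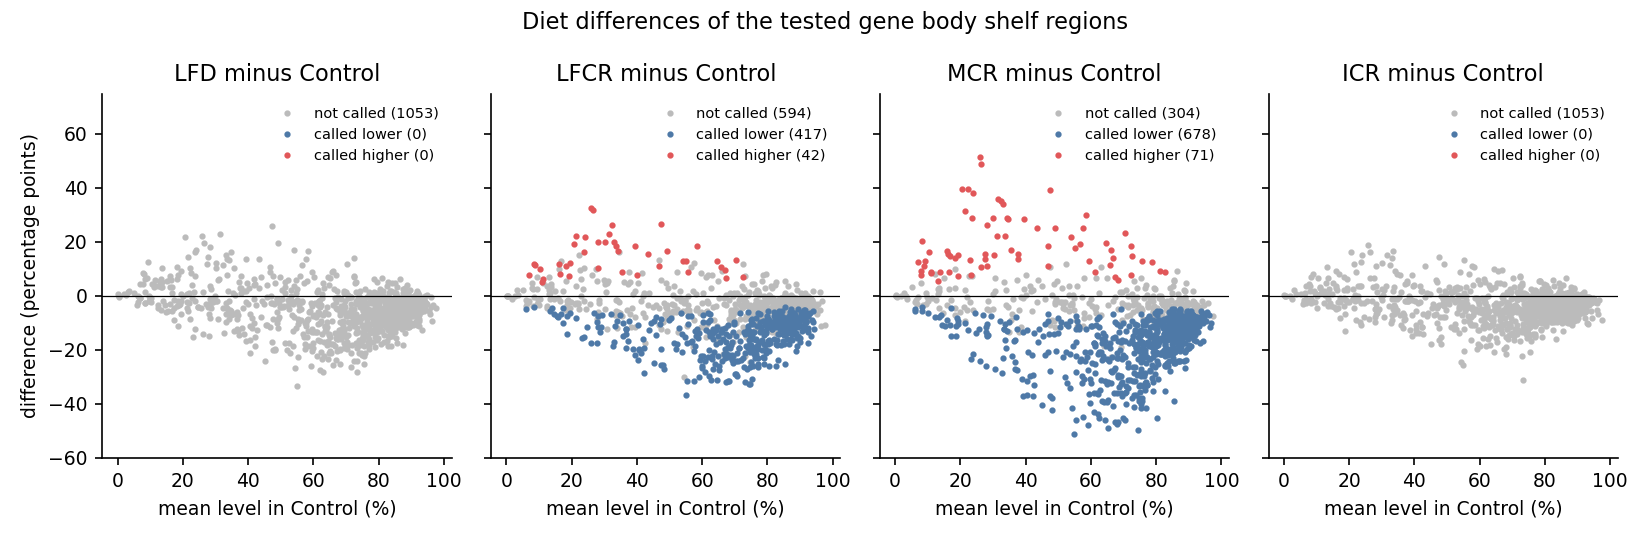
Difference from Control (percentage points) against the mean Control level (%) of the 1053 shelf regions, 1 panel per diet; each point is a region, blue if called lower, red if called higher (limma, adjusted p below 0.05), grey if not. MCR has 678 lower and 71 higher regions, LFCR 417 and 42, LFD and ICR none.

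The regions with the largest losses in MCR lay in genes of several kinds, with matrix proteins among them. The largest was in Zmynd8 and the transcript BC046401 (chr2:165858190-165858296, 3 CpGs), within the stretch printed above. It had 68.9, 40.7, 55.6 and 54.6% in Control mice 2, 5, 10 and 13, with no value in mouse 1, and 3.68, 5.12 and 1.96% in the MCR mice. LFCR mice 63, 67, 69 and 72 had 4.85, 0.952, 29.9 and 36.8%, LFD mice 42, 47 and 48 had 3.32, 34.3 and 26.8%, and Obese mouse 22 had 42.8%. The MCR mice and LFCR mice 63 and 67 were nearly unmethylated, as was LFD mouse 42. The MCR difference was -51.3 points (SE 9.21, limma adjusted p = 0.000636) and the LFCR difference -36.8 (SE 8.53, adjusted p = 0.0111). The 4 ICR mice with a value had 18.6 to 40.8%, and the ICR difference of -25.5 did not pass (adjusted p = 0.246).

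Map7d1, which encodes a protein that binds microtubules, had the next largest loss (chr4:126252542-126252975, 12 CpGs). The Control mice had 76.8, 79.6, 72.3, 67.3 and 76.0%, and the MCR mice 33.8, 20.6 and 19.7%. The LFCR mice had 20.8, 30.2, 55.1 and 61.6% in the order 63, 67, 69 and 72, all below Control. The difference was -49.7 points in MCR (SE 7.76, limma adjusted p = 0.000450) and -32.5 in LFCR (SE 7.13, adjusted p = 0.0100). Each of the 12 CpGs was called lower in MCR, by -43.9 to -54.8 points.

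Hspg2 encodes perlecan, a heparan sulfate proteoglycan of basement membranes. One of its regions (chr4:137471348-137471517, 6 CpGs) had 56.8% to 75% in the Control mice and 21.1, 10.3 and 18.1% in the MCR mice. The difference was -48.8 points (SE 6.63, limma adjusted p = 0.000428). Another Hspg2 region rose from 81.1% in Control to 90.2% in MCR (limma adjusted p = 0.00116), and a further one fell from 78.2% to 66.8%. Serpinh1 encodes the collagen chaperone HSP47. Its region (chr7:99351428-99352045, 9 CpGs) had 47.0% to 75.6% in Control and 11, 11.7 and 11.1% in MCR, a difference of -47.9 (SE 8.67, adjusted p = 0.000561). Mmp28, a matrix metalloproteinase (chr11:83448056-83448794, 9 CpGs), was at 49.8% to 75.4% in Control and 12.1% to 21.7% in MCR. In the regions of large loss of these 3 matrix genes LFCR mouse 72 was the highest LFCR mouse, at 56.4, 54.2 and 56.2%. It was within the Control range in Serpinh1 and Mmp28.

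The other 5 of the 10 largest losses were in Asb2, a ubiquitin ligase adaptor (chr12:103328718-103328964, -47.4 points), Gse1 with Gm20388 (chr8:120492577-120492757, -46.8), Gnas with Gm20721 (chr2:174334518-174334592, -46.7), Acap3 (chr4:155894879-155895012, -45.9) and Il12rb1 (chr8:70820546-70820754, -45.8). Gnas encodes the stimulatory G protein alpha subunit and is an imprinted locus. It had 52.4% to 78.2% in Control, 23.5, 16.5 and 22.1% in MCR, and 19, 19.9, 47.2 and 56.2% in the LFCR mice. Il12rb1 encodes a receptor chain for interleukins 12 and 23, and its 13 CpGs had 41.0% to 70.2% in Control and 7.78, 10.1 and 10.3% in MCR. In all 10 regions every MCR mouse lay below every Control mouse; limma adjusted p values were 0.000428 to 0.000929.

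Among the gains, Arhgap45 had the largest (chr10:80017812-80017922, 5 CpGs). The Control mice had 20.4, 16.4, 31.5, 30.5 and 30.5%, and the MCR mice 75.5, 80.4 and 76.1%. LFCR mice 63 and 67 had 73.9 and 73.8%, mice 69 and 72 had 45.3 and 40.0%, and Obese mouse 22 had 38.7%. All LFCR and MCR mice were above all Control mice. The MCR difference was 51.5 points (SE 8.38, limma adjusted p = 0.000455) and the LFCR difference 32.4 (SE 7.69, adjusted p = 0.0110).

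Thy1 encodes a surface glycoprotein of T cells, neurons and fibroblasts. Its region (chr9:44047223-44047289, 4 CpGs) had 27.3, 29.5 and 22.4% in the 3 Control mice with a value (2, 5 and 13) and 78.3, 75.5 and 71.5% in the MCR mice, a difference of 48.7 points (SE 10.1, limma adjusted p = 0.00123). The LFCR mice had 74.4, 73.4, 53.6 and 31.3%. The LFCR call (31.8 points, adjusted p = 0.0216) ended when Control mouse 2, Control mouse 13, LFCR mouse 63 or LFCR mouse 67 was left out (adjusted p 0.0549 to 0.0844).

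Myo7a, an unconventional myosin of sensory hair cells (chr7:98076737-98077042, 11 CpGs), was at a middle level in Control. The Control mice had 37.5% to 59.1% and the MCR mice 90.3, 86.0 and 84.1%. All 11 CpGs were called higher in MCR, by 29.4 to 49.5 points, and the region rose by 39.4 points (SE 7.15, limma adjusted p = 0.000564). LFD mouse 42 had 84.6% and Obese mouse 22 63.3%, so high values were not limited to the called groups.

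The other gains of the first 10 were in Fcho1, an adaptor of clathrin endocytosis (39.6 points), Mafg, a small Maf transcription factor (39.6), a run without a symbol inside Pim1, a serine/threonine kinase gene (chr17:29494234-29494731, 38.3), Fam78a (35.9), Lrp1, a large endocytic receptor of the LDL receptor family (35.3), Pik3cd, the leukocyte catalytic subunit of PI3-kinase (34.2), and Tm6sf1 (31.3). In Lrp1 (chr10:127590194-127590343, 3 CpGs) the Control mice had 25.5% to 41.0%, the LFCR mice 65.7, 71.5, 52.3 and 45.0% and the MCR mice 63.9, 70.5 and 68.4%. Every MCR mouse lay above every Control mouse in all 10 regions. Mafg was not called in LFCR (15.3 points, limma adjusted p = 0.0792).

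**Figure D4:**
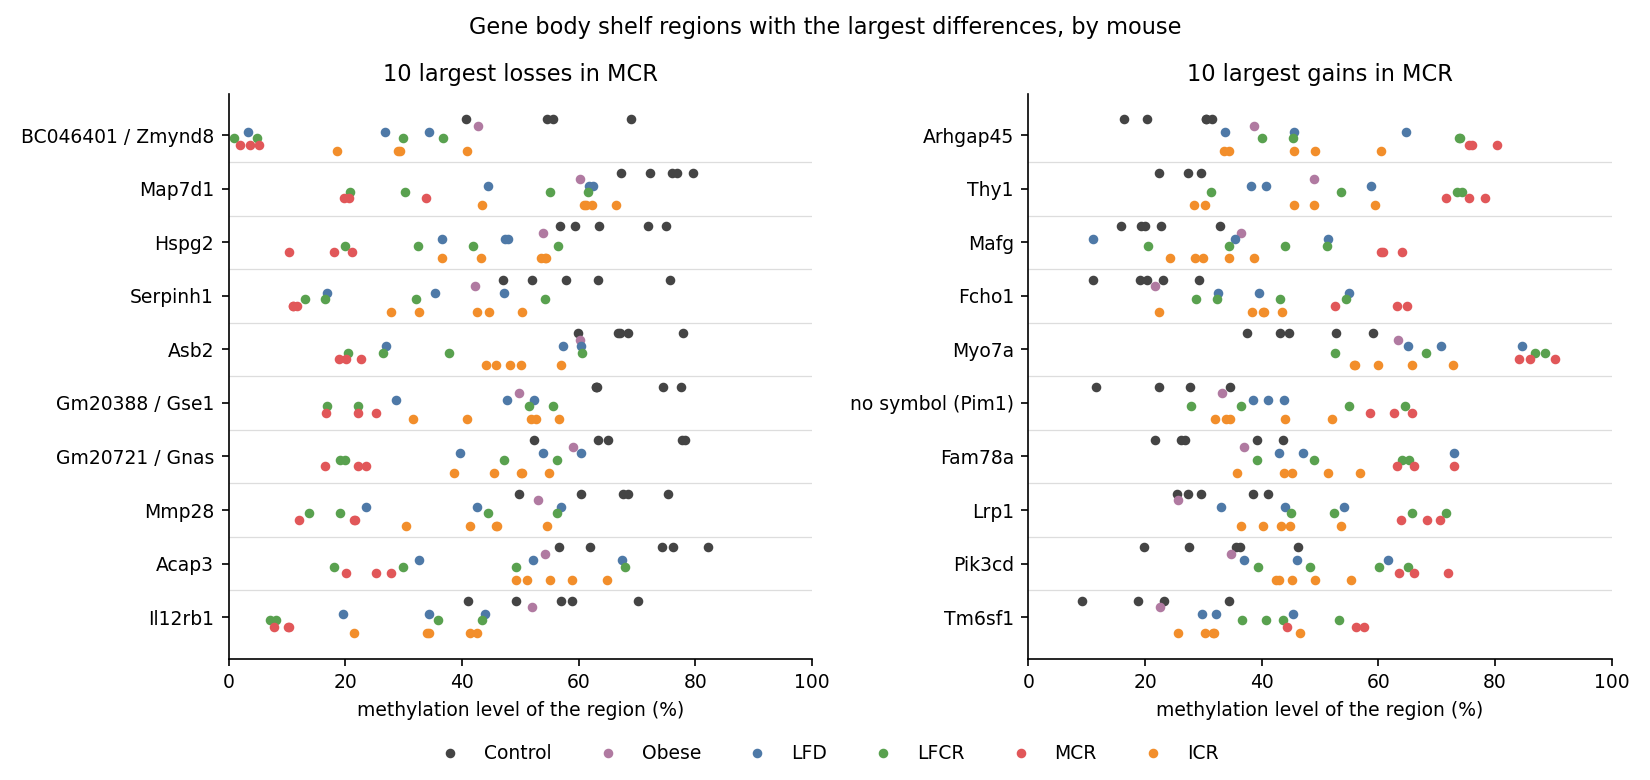
Methylation level (%) of the 10 shelf regions with the largest losses (left) and the 10 with the largest gains (right) in MCR; each point is a mouse, coloured by group. MCR points lie apart from all Control points in every row, while LFCR points spread between both, for example 0.952% to 36.8% at Zmynd8.

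The largest LFCR losses were in Zmynd8 (-36.8 points), a run without a symbol inside Nrde2 (chr12:100128301-100128413, -32.6), Map7d1 (-32.5), Cacna1a (-32.0) and Gnas (-31.8), and the largest gains in Arhgap45 (32.4), Thy1 (31.8), Myo7a (26.6), Lrp1 (26.3) and Fam78a (22.8). LFCR and MCR are set against the same Control mice, so a region named for both is no independent evidence. Cacna1a, a neuronal calcium channel (chr8:84635567-84635595, 3 CpGs), had 95.2, 51.6, 70.8 and 75.3% in 4 Control mice and 33.7, 39.2, 47.7 and 44.4% in the LFCR mice. Each of the 10 LFCR calls was lost without LFCR mouse 63 and without mouse 67 (limma adjusted p 0.0508 to 0.0891).

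LFD and ICR gave no called shelf region, and the 5 of smallest p in each are given as values. For LFD these were Rap1gap, Fuz, a region of Gse1, Misp and Efhd2 (limma adjusted p = 0.0865 each). Fuz, a planar polarity effector needed for cilia (chr7:44898453-44899119, 21 CpGs), had 59.7% to 67.7% in Control and 43.2, 53.7 and 48.6% in LFD mice 42, 47 and 48. Efhd2, a calcium-binding protein (chr4:141871109-141871332, 5 CpGs), had 56.5% to 71.1% in Control and 19, 42.6 and 42.0% in LFD. Rap1gap, which switches off the GTPase Rap1 (chr4:137684913-137685089, 4 CpGs), went the other way, with 9.94% to 18.4% in Control and 25.5, 21.3 and 24.8% in LFD. None of these LFD mice overlapped Control in the 3 regions. All 5 regions passed in MCR, in the same direction (limma adjusted p 0.000428 to 0.00218). Of all shelf regions, 64.4% were called lower and 6.74% higher in MCR. MCR and LFD are set against the same Control mice, so these passes are no independent evidence for LFD.

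For ICR the 5 were Gm16343, Kif26a, Mapk8ip2, Best2 and Nrbp2 (limma adjusted p = 0.246 each). Gm16343 is the region before the Hyal1 start printed above (chr9:107576810-107576884, 4 CpGs). The Control mice had 16.4, 22.9, 12.7, 23.7 and 17.5%, and the ICR mice 6.25, 1.14, 7.14, 5.49 and 8.65%. LFD mice had 2.33, 7.89 and 12%, LFCR mice 0, 0, 7.58 and 10.3%, and MCR mice 3.88, 0 and 7.69%. All 15 weight-loss mice were below all Control mice, and Obese mouse 22 was at 13.5%. The call passed in MCR (-14.8 points, limma adjusted p = 0.00104) and LFCR (-14.2, adjusted p = 0.00984). This region was chosen for its small ICR p against the same Control mice, which all diets share. The separation and the passes are thus no independent evidence.

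Gene lists for the tissue and treatment were read by the shelf regions in them, beside the median of all shelf regions (-10.4 points in MCR, and -8.23 over all 16891 regions). The counts below stand beside 64.4% of all shelf regions and 54.3% of all regions called lower in MCR, and 6.74% and 6.52% called higher. Of 32 genes of adipocyte function and lipid storage, 3 had a region, and all 3 were lower in MCR and LFCR. Slc2a4, the insulin-responsive glucose transporter GLUT4 (chr11:69945330-69945502, 6 CpGs), had 75.4% to 91.4% in Control, 59.6, 52.7 and 57.9% in MCR and 52.1, 52.4, 73.5 and 80.4% in LFCR. Its MCR difference was -25.9 points (SE 5.76, limma adjusted p = 0.00156). Pnpla2, the adipose triglyceride lipase (chr7:141459018-141459599, 8 CpGs), had 81.1% to 93.3% in Control and 67.6, 67.9 and 70.7% in MCR, a difference of -18.8 (SE 4.16, adjusted p = 0.00152). Fasn, fatty acid synthase, differed by -13.8 (adjusted p = 0.0139). No MCR mouse overlapped Control in Slc2a4 or Pnpla2.

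Insulin, IGF and mTOR signalling had 5 regions in 4 of 39 genes, with 3 lower and 1 higher in MCR (median -24.1 points). The regulatory PI3-kinase subunit gene Pik3r2 (chr8:70774045-70774203, 4 CpGs) had 44.4, 47.5, 39.1, 32.2 and 39.3% in Control, 11.5, 6.13 and 9.76% in MCR, and 7.62, 14.7, 27.8 and 31.0% in LFCR, all below Control. The MCR difference was -31.4 points (SE 5.03, limma adjusted p = 0.000455). Akt1, the kinase below PI3-kinase, differed by -25.6 and Irs2, an insulin receptor substrate, by -24.1. Pik3cd (chr4:149658098-149658367, 6 CpGs) went up, from 19.8% to 46.2% in Control to 72.0, 66.1 and 63.6% in MCR, while its other region was at 90.1% in Control and 82.7% in MCR (adjusted p = 0.0902).

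Genes of fibroblasts and matrix had 6 of 8 regions lower and none higher (median -16.8 points). The 2 of smallest p were in Adamts14, a procollagen protease (-15.4 points), and Ltbp3, a binding protein of latent TGF-beta (-14.4; limma adjusted p = 0.000511 and 0.000428). Larger differences, picked after their values were seen, were in 3 others. Mmp14, a membrane-bound collagenase, differed by -31.7 points, Col4a1, a basement membrane collagen, by -31.4, and Tnxb, a tenascin, by -27.3 (limma adjusted p = 0.00124, 0.00493 and 0.000533). Endothelial genes had 5 of 5 regions lower (median -13.6), 2 of them in Egfl7, a secreted factor of vessels. The first (chr2:26590097-26590390, 3 CpGs) had 69.6% to 81.7% in Control and 38.0, 38.5 and 33.7% in MCR, and all 5 ICR mice were below Control at 45.1% to 65.8%. The second differed by -28.8 points in MCR (limma adjusted p = 0.000751). The endothelial receptor gene Tie1 differed by -9.49 points (adjusted p = 0.00543).

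Leukocyte genes had 5 of 8 regions lower and none higher (median -10.5 points). Runx3, a transcription factor of lymphocytes, held the shelf region with the most CpGs, 29 (chr4:135155215-135156294). The Control mice had 51.9, 57.5, 47.1, 36.4 and 44.4%, LFD mice 16.1, 36.1 and 30.6%, and LFCR mice 9.74, 10.4, 31.6 and 35.5%. The MCR mice had 8.55, 10.4 and 12.4%, and the ICR mice 32.2, 22.5, 24.2, 34.7 and 42.7%. All LFD, LFCR and MCR mice were below all Control mice, and all 29 CpGs were called lower in MCR, by -23.1 to -61.5 points. The region differed by -37.0 points in MCR (SE 6.49, limma adjusted p = 0.000515) and -25.7 in LFCR (adjusted p = 0.0104). A region of Zap70, a T cell receptor kinase, was at 82.5% in Control and 70.5% in MCR (adjusted p = 0.000618). Coro1a, an actin-binding protein of leukocytes, was at 75.3% in Control and 81.8% in MCR and did not pass (adjusted p = 0.219).

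Luminal epithelium had 2 regions, and neither was called. Krt19, a luminal keratin (chr11:100141554-100141621, 4 CpGs), had the largest SD in Control of the regions with a value in all 5 Control mice, at 72.0, 90.1, 87.3, 57.2 and 84.5%, against 69.3, 76.4 and 85.6% in MCR (-1.10 points, limma adjusted p = 0.891). Kit, a receptor kinase of luminal progenitors, was at 23.7% in Control and 31.2% in MCR (adjusted p = 0.263). Thermogenic and basal lists had no region, with 6 and 2 tested CpGs. Ryr1, the muscle calcium release channel, gave both muscle regions, each lower in MCR (-22.5 and -12.9 points).

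The lists of axon guidance, of Wnt, TGF-beta and Notch signalling, of chromatin enzymes and of the clock were close to the median of all shelf regions. Axon guidance had 15 of 20 regions lower and none higher (median -9.87 points), led by Plxnb2, a semaphorin receptor (chr15:89169713-89170141, 7 CpGs), with 52.8% to 73.8% in Control and 16.9, 18.5 and 20.1% in MCR. Wnt, TGF-beta and Notch signalling had 7 of 11 lower (median -10.3). Ski, a repressor of Smad signalling, went from 45.1% to 4.66%, Apc2 from 42.2% to 12.9% and Lfng, a glycosyltransferase that modifies Notch, from 17.2% to 2.14%. Chromatin and DNA methylation enzymes had 5 of 9 lower (median -10), with the remodeller Chd3 (chr11:69365066-69365482, 4 CpGs) at 39.3% in Control and 2.25% in MCR and the histone deacetylase Hdac1 at 77.7% and 64.2%. Both clock regions were lower, Nr1d1, a repressor in the clock, by -12.4 points and Nfil3 by -10.3; leaving out Control mouse 2, Control mouse 5, MCR mouse 95 or MCR mouse 96 ended the Nfil3 call (limma adjusted p 0.0609 to 0.194).

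Neuronal and glial genes had 10 of 19 regions lower and 1 higher (median -9.03 points), the higher one in Dlg4, a postsynaptic scaffold (27.7% in Control, 43.2% in MCR). The 2 of smallest p were in Cacna1h, a T-type calcium channel (-16.2 points), and Tubb3, a neuronal tubulin (-11.7). Developmental transcription factors had the most gains of any list, with 8 of 16 lower and 5 higher (median -5.94). Nfix (chr8:84713569-84713803, 4 CpGs) fell from 75.4% to 33.8% and a region of Nfic from 42.2% to 5.21%. Lmx1b, a limb and neural LIM homeodomain factor, rose at 2 regions of low level, from 16.4% to 25.3% and from 11% to 19.6%, and Tbx4 and Tbx5, T-box limb and heart factors, rose by 7.69 and 14.7 points. The lists were not tested as sets.

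**Figure D5:**
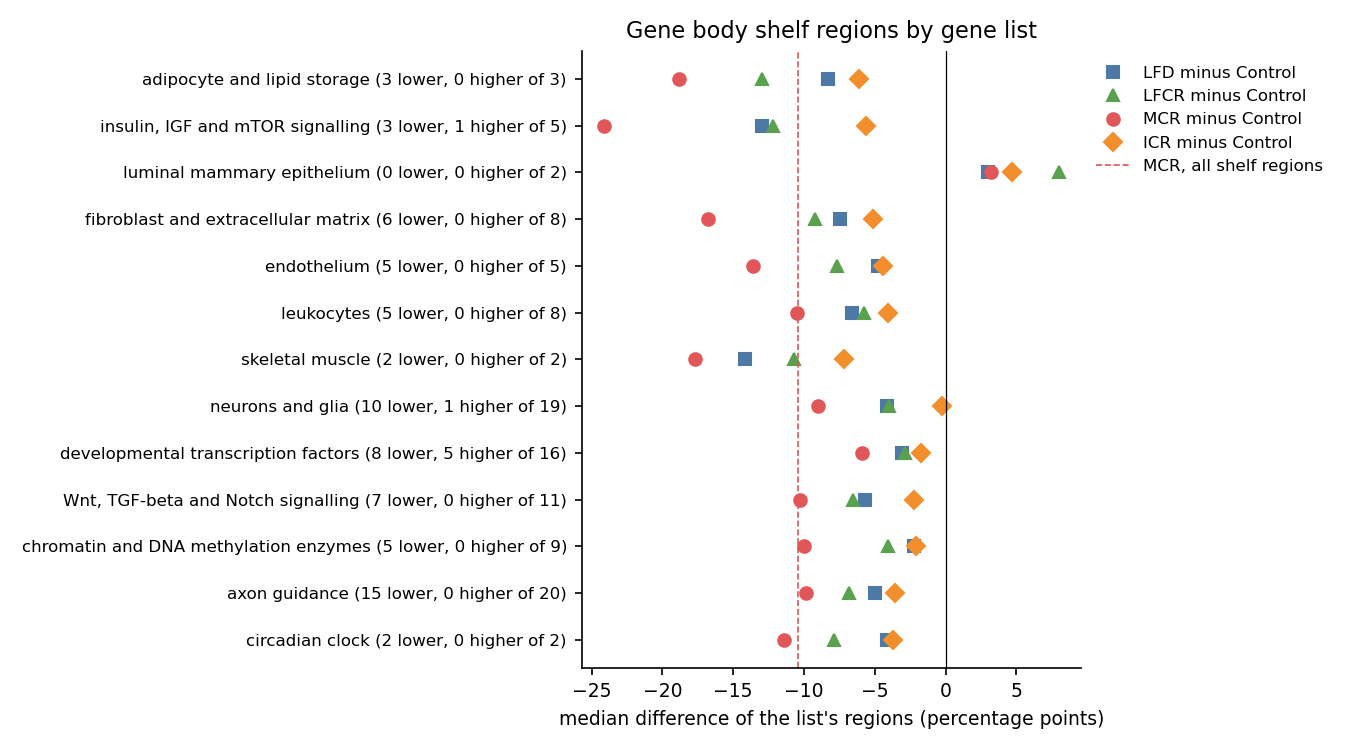
Median difference from Control (percentage points) of the shelf regions of each gene list, 1 marker per diet, with the number of regions lower and higher in MCR in brackets. The dashed line marks the MCR median of all shelf regions, -10.4; insulin signalling is at -24.1 and the 2 luminal regions at 3.22.

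Tested shelf CpGs carried 1607 gene symbols. The symbol Gm20388 carried the most, 228 CpGs over chr8:119988197-123894903, an interval shared with several other genes. Beside the 42.0% of shelf CpGs called lower in MCR, Exoc3l2 had 34 of 41 lower, with a mean of 72.7% in Control and 46.6% in MCR, Runx3 had 32 of 35 lower and Caskin2 23 of 35, each with none higher. Lmx1b was the reverse, with 12 of 27 higher and 1 lower, beside 5.57% of shelf CpGs and 4.54% of all tested CpGs called higher.

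Some genes held shelf regions that moved in opposite directions in MCR. Lrp1 rose at the region above and fell at 2 others, from 79.4% to 59.7% and from 30.7% to 3.78%. Zmynd8 rose from 46.7% to 65.1% at a region of 10 CpGs (chr2:165792655-165792864; limma adjusted p = 0.0124) while falling at the stretch printed above. Gse1 rose from 28.2% to 54.6% over 23 CpGs (chr8:120532804-120533281, adjusted p = 0.00143) between regions that fell. Fam110a fell from 91.4% to 77.3% at one region and rose from 8.92% to 20% at the stretch printed above (adjusted p = 0.000437 and 0.00498). Bmp8a, a bone morphogenetic protein gene, rose by 28.6 points at one region and fell by 19.9 at the other.

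Control mice themselves spread at a few regions. Besides Krt19, Gucy2e had 50.7% to 87.6% and Gna11, a G protein alpha subunit, 9.75% to 42.4% in the Control mice. Gna11 was at 3.50, 0.400 and 2.32% in MCR (-25.9 points, limma adjusted p = 0.00294). The steadiest regions of middle level were in Lmtk3 (78.5% to 80.1%), Psd (73.6% to 75.5%) and Ppfia3 (54.7% to 57.0%). Psd was at 56.8% to 61.7% in MCR, below all Control mice. The small MCR difference of Lmtk3 (-6.26 points, adjusted p = 0.0458) was lost in 12 of the alternatives tried.

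Markers of some cell types of a fat pad were lower in MCR and others overlapped Control. No RNA was measured, so CpGs at or before the start of marker genes were read, with no test. The mean over 9 CpGs of Plin1 and Lipe, 2 of 7 adipocyte markers with a value, was 80.9% to 89.9% in Control and 62.6% to 69.1% in MCR mice. Over 27 CpGs of Cd37, Coro1a and Spi1, 3 of 5 leukocyte markers, it was 29.7% to 46.3% in Control and 27.7% to 42.8% in MCR, and over 26 CpGs of Cldn4, 1 of 5 luminal markers, 60.1% to 76.8% and 50.3% to 55.0%. The fibroblast genes Col1a1 and Pdgfra (2 of 4) had 20.2% to 27.3% and 6.93% to 16.1%, and 3 of 4 endothelial genes 34.6% to 63.7% and 33.6% to 50.3%. The 1 muscle gene with a value, Ckm, had 63.1% to 67.4% and 54.2% to 59.8%, Zap70, 1 of 4 lymphocyte markers, 35.7% to 51.2% and 14.2% to 32.8%, and none of 4 basal markers had one. The part of cell composition in the shelf results was not tested.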

How the data were processed

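The authors aligned the reads with Bismark to mm10, per the submitters' processing notes; versions and filters are not given in the sources used here. The deposited table gives 1 methylation level for each CpG in each library, a fraction printed here as a percent, and a coverage signal. That deposited coverage times 21 was whole for 100% of CpGs (tolerance 1e-06), so it is a mean over 21 libraries, and reads per library are unknown.

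Rows were reduced to unique CpGs, leaving out 65 on other sequences. Shelf means used CpGs with a value in all 21 libraries and exact permutation tests, two-sided. CpGs and regions were fitted with limma 3.58.1 (R 4.3.3) with 1 term per group, no trend and Benjamini-Hochberg adjustment over all CpGs or regions; the vectorised fit was checked on simulated data. The value of a region in a mouse adds the mouse's mean deviation to the average CpG mean, and was set only where most of its CpGs (at least 0.5 of them) had a value. A logistic model was planned for counts, but no counts per mouse were used here. Each library is 1 mouse by its number.

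Named regions are the 10 largest MCR losses and gains, 5 of each in LFCR, the 5 of smallest p in LFD and ICR, 2 per gene list by MCR p, the 3 most variable and (at 20% to 80%) least variable among regions with a value in all 5 Control mice, and the 3 single CpGs of largest loss and gain in MCR. Other regions named (from lists, or genes that moved both ways) were chosen after their values were seen. The members, lists and rules were chosen with earlier results of these data known. Alternatives were other coverage minimums, scales, filters, region definitions and leaving out each mouse.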

Additional observations from a re-analysis of the deposited data

Results flagged for a closer look

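Among 62 named regions, 185 groups of 4 or more mice were searched for a mouse apart from its group by Dixon's test, which flags about 1 in 20 groups by chance, and 6 were found. ICR mouse 103 was low at Egfl7 (chr2:26590097; 45.1% against 60.5% to 65.8% in the other ICR mice), at Tubb3 with Gm20388 (chr8:123418232; 77.9% against 83.7% to 85.4%) and at Map7d1 (43.5% against 60.9% to 66.4%). ICR mouse 112 was low at Fcho1, with 22.4% against 38.3% to 43.4%. LFCR mouse 72 was high at Zap70 (chr1:36781585), with 78.3% against 72.6% to 73.2%. Control mouse 2 was high at Lfng, with 24.5% against 13.3% to 16.4%.

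Of the 4 libraries left out, 3 had shelf means above all Control mice. Over the 3281 shelf CpGs with a value in all 25 libraries, Obese mouse 27 had a mean of 73.8%, Obese mouse 28 had 74.4% and LFD mouse 46 had 72.6%, above the Control range of 63.2% to 68.2%. Obese mouse 40, also left out, had 67.1%, and Obese mouse 22 had 63.7%, both within that range. No group was tested with these libraries.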

How the results depend on the processing

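The shelf mean stayed below Control in all 4 diets under every alternative tried. None of these brought back LFD mouse 46, whose mean was above all Control mice. With each mouse left out in turn the differences ran from -7.08 to -3.19 points for LFD, -8.79 to -5.82 for LFCR, -11.7 to -10.5 for MCR and -4.28 to -2.89 for ICR. Without the 2 libraries of fewest values, an alternative chosen after seeing the data, they were -5.21, -7.03, -10.7 and -3.52, each at an exact permutation adjusted p of 0.0857; MCR then has 2 mice and cannot pass.

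For the gap between shelf and the other classes, leaving out any 1 MCR mouse ended the MCR calls (exact permutation adjusted p = 0.0571). The 2 mice left could not have passed there. The MCR difference of the shelf mean still passed without any 1 MCR mouse (exact permutation p = 0.0476, adjusted p = 0.0476). With each mouse left out, the shelf difference beyond islands ran from -3.29 to -1.22 for LFD, -2.81 to -1.86 for LFCR, -4.54 to -3.87 for MCR and -1.58 to -0.834 for ICR. Beyond shores it ran from -1.46 to -0.672 for LFD and -2.57 to -2.23 for MCR. Beyond open sea it ran from -0.381 to -0.225 for LFD, -0.424 to -0.241 for MCR and -0.264 to -0.121 for ICR. Among CpGs at 70% or more in Obese mouse 22 it turned to 0.789, 1.40, 1.87 and 0.732 against islands and 0.317, 0.219, 0.349 and 0.0833 against shores, for LFD, LFCR, MCR and ICR in that order. Against open sea it was -0.566, -0.463 and -0.694 for LFD, LFCR and MCR.

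Without the 2 libraries of fewest values, LFCR called 323 CpGs lower and 29 higher, and MCR 261 higher. With each mouse left out, LFCR called 0 to 2092 CpGs lower and 0 to 262 higher, LFD 0 to 2 lower. LFCR regions numbered 0 to 560 lower and 0 to 57 higher, and LFD regions 0 to 144 lower and 0 to 19 higher. Requiring at least 5 CpGs left fewer regions to test, with 238 lower in LFCR and 322 lower and 35 higher in MCR. The Krt19 difference in MCR changed sign, from -6.35 to 2.81 points. A coverage minimum of 5 reads left the same CpGs. The cause of the other shifts was not tested. No paired analysis was possible because the groups share no mouse numbers. Depth per library is unknown, so the error of a single CpG in a mouse is not separated from the spread between mice.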
